A study of Homo sapiens with 16 samples.

Results

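CCLP1 is an established cell line from a human intrahepatic cholangiocarcinoma, which is a bile duct tumour within the liver. Described here are the 4 libraries, of 16 in the study, that show what an adenovirus carrying the transcription factor PRH did to parental CCLP1 cells. The tested cells received a virus for myc-PRH (PRH virus, 2 libraries), and the control cells received a virus labelled empty (2 libraries). The columns of the control libraries bear the name of a GFP virus, and the wording of the labels is kept. All 4 libraries were chosen by the virus label alone, no shRNA is named for them, and all 23340 gene symbols of their table were considered. A PRH virus and a virus labelled empty were also given to CCLP1 cells with a non-targetting shRNA (4 further libraries, called control shRNA cells). Those values are set beside the parental ones. The control columns there bear the name empty and not GFP, so whether both sets of cells received the same control virus is not known. The sources used here give neither the dose of virus nor the time after infection. PRH came from a virus in a single cell line, so the data describe added PRH, not the cells' own.

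PRH is a homeodomain protein encoded by HHEX. It is needed in the embryo for the liver and bile ducts, and it acts mainly as a repressor of transcription, often with proteins of the Groucho/TLE family. Notch, which the other experiments of the study address, is a family of receptors that are cut inside the membrane after a ligand on a neighbouring cell binds. The freed part joins RBPJ in the nucleus and switches on repressors of the HES and HEY families, and in the liver this signal turns progenitor cells towards a bile duct fate.

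Polyadenylated RNA was sequenced, and each library is called A or B as a name only. The libraries held 26896441 and 28037741 reads in genes with the PRH virus, and 20795552 and 22416630 with the empty virus. Between 15731 and 16236 genes had at least 1 read. Values are normalised counts, which are reads divided by 1 size factor per library, and 3 reads correspond to 2.61 to 3.51 of them. Fold changes come from limma on log2(value + 1), are given ± the standard error of the fit, and understate the change of genes with few reads. P-values are adjusted by the Benjamini-Hochberg method over all 13263 genes tested, and an adjusted p under 0.05 is called. Nothing says how separately the cultures were kept, so p-values cover the spread between libraries alone, and that spread may be technical.

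HHEX itself had 101992 and 69971 normalised counts in PRH virus libraries, against 308 and 423 in empty virus libraries (log2 fold change 7.87 ± 0.21, adjusted p = 4.4e-05). That is 235 times the empty virus mean, and the HHEX reads made up 0.428% and 0.287% of all reads in PRH virus libraries A and B. Library A thus had 1.46 times the HHEX value of library B. The values cannot separate viral HHEX transcripts from endogenous ones.

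Several markers of bile duct epithelium were near absent. KRT7, a bile duct keratin, had 1.77 and 1.74 normalised counts in PRH virus libraries and 1.17 and 0 in empty virus libraries. KRT19 had 12.4 and 19.97 with the PRH virus and 11.7 and 36.6 with the empty virus, and EPCAM 7.09 and 7.82 with the PRH virus and 12.9 and 25.5 with the empty virus. SOX9, a transcription factor of bile duct cells, was well above the floor, and 6 of the 11 bile duct markers reached the level for a test. The mesenchymal filament VIM had 220839 and 248383 with the PRH virus and 269269 and 277378 with the empty virus, and was not called. Of other cell types, 1 of 9 hepatocyte markers, 0 of 7 endothelial and 2 of 7 leukocyte markers were tested. The endothelial markers together held 16.8 and 12.2 normalised counts with the PRH virus, and 10.5 and 4.43 with the empty virus. Of 9 fibroblast markers 6 were tested, while PDGFRA was at 0 in all 4 libraries. Together the fibroblast markers were abundant, at 38543 and 35994.5 normalised counts with the PRH virus and 47659 and 45771 with the empty virus. In such bulk samples, fewer cells of a type and less RNA per cell cannot be told apart.

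Of the 13263 genes tested, 2073 were called (15.6%), 1313 higher with the PRH virus (9.9%) and 760 lower (5.73%). The median log2 fold change over all genes tested was -0.01. Both PRH virus libraries lay above both empty virus libraries in 30.4% of genes tested and below both in 29.5%, together 59.9%, so a gap between the groups alone was common. All 1313 higher and all 760 lower genes had such a gap, so for a called gene it is no further support. Most changes were modest. Among the higher genes 737 changed less than 2-fold, 397 between 2- and 4-fold, 118 between 4- and 8-fold and 61 more than 8-fold. Among the lower genes these numbers were 558, 175, 20 and 7. With the empty virus the higher genes had a median of 459.99 normalised counts and the lower genes 2001, not scaled by gene length. In 990 of the 1313 higher genes (75.4%) PRH virus library A lay above library B, whereas this was so for 51.4% of all genes tested. Of the 760 lower genes, 461 (60.7%) lay farther from the empty virus mean in library A. Whether the HHEX level had a part in this was not tested. Without PRH virus A 1314 genes were called and without empty virus A 1354, against 1798 without PRH virus B and 2101 without empty virus B. In all 4 such fits 626 of the higher and 292 of the lower genes stayed called. Without the intensity trend in the variance estimate 758 were called.

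**Figure D1:**
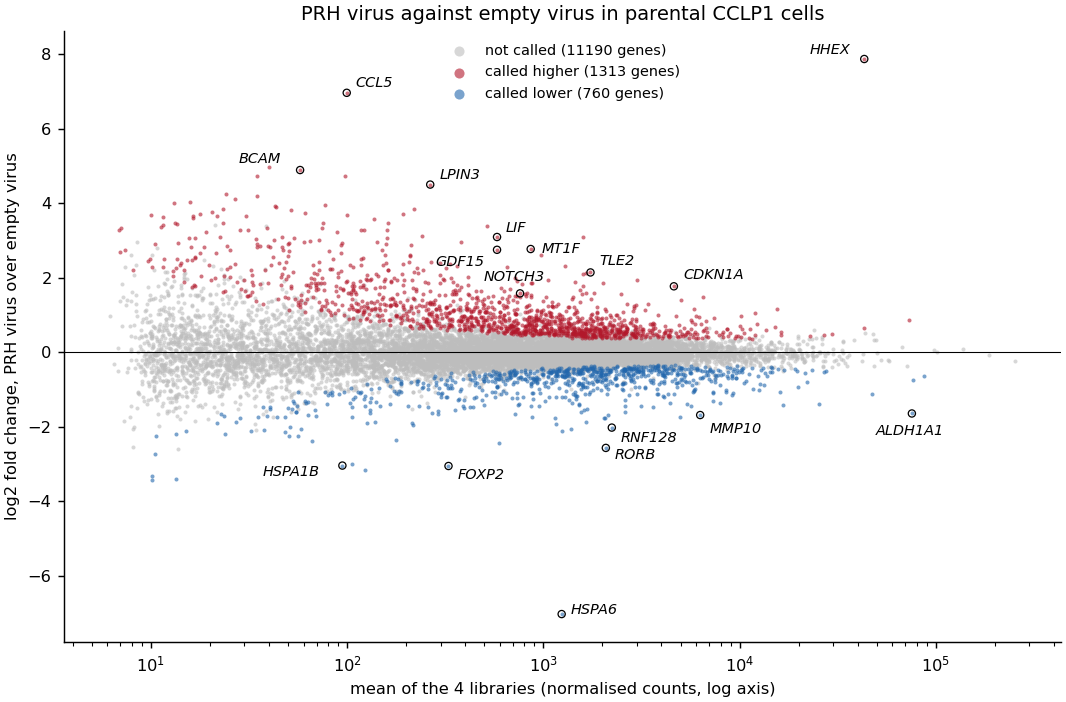
Each point is 1 of the 13263 tested genes; the horizontal axis is the mean over the 4 libraries in normalised counts (log axis) and the vertical axis the log2 fold change of PRH virus over empty virus. HHEX stands at 7.87 and HSPA6 at -7.02, and the 1313 higher genes in red reach larger fold changes than the 760 lower genes in blue.

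The calls followed the base composition of the transcripts. The median GC content, taken from the longest GENCODE transcript of each symbol, was 59.8% for genes called higher, 41.8% for genes called lower and 48.7% for all genes tested. The genes were split into 5 equal bins by GC content. In the GC-richest bin 30.1% were called higher and 0.682% lower, while in the GC-poorest 0.469% were called higher and 12.7% lower. The median log2 fold change was 0.36 in the GC-richest bin and -0.24 in the GC-poorest, and in control shRNA cells it was 0.43 and -0.19. Within the groups, the median log2 ratio of PRH virus A over B was 0.02 in the GC-richest bin and 0.06 in the GC-poorest, and that of empty virus A over B was -0.12 and 0.20. When each library was adjusted for GC content, 1192 of 11731 genes were called (637 higher and 555 lower), among them 560 of the 1218 higher and 376 of the 694 lower genes with a known transcript. How much of this relation belongs to the library preparation was not tested. The genes given below as higher or lower kept their call under this adjustment and in all 4 fits that left out 1 library, unless their paragraph says otherwise. Each fit without 1 library leaves a single library in 1 group, so its spread rests on the other pair and on the trend over all genes. Its calls are therefore a limited check of single genes. The fit with no intensity trend is not part of this rule, and there 157 of 286 named genes lost the call.

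**Figure D2:**
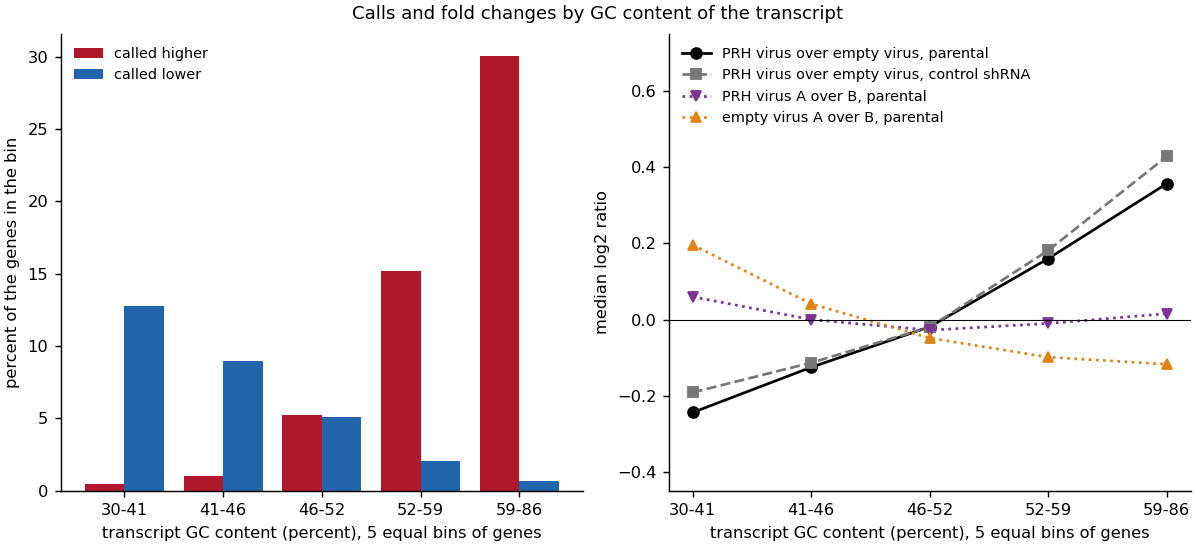
Left, the percent of genes called higher or lower in each of 5 bins of transcript GC content; right, the median log2 ratio in the same bins for PRH virus over empty virus in both sets of cells and for library A over B within each parental group. The share called higher runs up to 30.1% in the GC-richest bin and the share called lower up to 12.7% in the GC-poorest.

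The largest increases after HHEX were in secreted signals, receptors and enzymes that the empty virus cells hardly expressed. CCL5, a chemokine that draws T cells, had 277 and 119.8 normalised counts in PRH virus libraries, against 1.17 and 0 in empty virus libraries, where a single read was seen (log2 fold change 6.96 ± 0.61, adjusted p = 0.00268). GRM4, a glutamate receptor, had 102 and 53.8 with the PRH virus and 4.68 and 0 with the empty virus (log2 fold change 4.98 ± 0.85, adjusted p = 0.012). BCAM, a laminin receptor, had 124 and 101 with the PRH virus and 3.51 and 2.22 with the empty virus (log2 fold change 4.89 ± 0.42, adjusted p = 0.00268). All of these were near absent with the empty virus and present in both PRH virus libraries. C3, the central protein of complement, had 108 and 27.8 with the PRH virus and 3.51 and 0 with the empty virus (log2 fold change 4.72 ± 0.92, adjusted p = 0.0185), with 3 reads in all with the empty virus. By reads alone the ratio of PRH over empty virus was 348 for CCL5 (95% counting interval 62.1 to 13761) and 39.6 for C3 (13.3 to 194). These intervals cover counting error only. Log2 fold changes of such genes moved when 1 library was left out. For CCL5 the value was 6.36 without PRH virus A and 7.56 without PRH virus B. For GRM4 it was 6.23 without empty virus A and 3.73 without empty virus B. For C3 it was 3.76 and 5.68 without PRH virus A or B, and 5.81 and 3.64 without empty virus A or B.

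LPIN3, CRABP2, IL32 and SLC8A2 started from a higher level with the empty virus. LPIN3, which makes diacylglycerol from phosphatidic acid, had 619.6 and 399 normalised counts with the PRH virus and 21.1 and 21.0 with the empty virus (log2 fold change 4.50 ± 0.28, adjusted p = 0.00143). CRABP2, a carrier of retinoic acid, had 332 and 387 with the PRH virus and 22.2 and 31.0 with the empty virus (log2 fold change 3.72 ± 0.26, adjusted p = 0.00181). Both genes had empty virus libraries that lay close together and PRH virus libraries many times higher. IL32, an inflammatory cytokine, had 239 and 132 with the PRH virus and 16.4 and 9.97 with the empty virus (log2 fold change 3.69 ± 0.41, adjusted p = 0.00372). SLC8A2, a sodium and calcium exchanger, had 301 and 208 with the PRH virus and 24.6 and 16.6 with the empty virus (log2 fold change 3.57 ± 0.32, adjusted p = 0.00268). In IL32 and SLC8A2 PRH virus library A was the higher of the pair and both stood clear of the empty virus libraries. Also among the largest increases were GALNT6, which starts mucin-type glycans (3.95 ± 0.42, adjusted p = 0.00347), the MAP kinase phosphatase DUSP9 (3.93 ± 0.41, adjusted p = 0.00341), the matrix protein EMILIN3 (3.89 ± 0.40, adjusted p = 0.00338), the actin-binding SYNPO (3.84 ± 0.53, adjusted p = 0.00684), the sodium pump subunit ATP1B2 (3.73 ± 0.56, adjusted p = 0.00825) and CYP4F22 (4.12 ± 0.66, adjusted p = 0.0103). Without PRH virus A the log2 fold change was 3.07 for ATP1B2 and 3.35 for CYP4F22, without PRH virus B 4.39 and 4.90. For SYNPO it was 4.53 without empty virus A and 3.15 without empty virus B. With the empty virus GALNT6 had 8.19 and 7.75 normalised counts, DUSP9 3.51 and 5.54, EMILIN3 4.68 and 4.43 and ATP1B2 4.68 and 9.97. These too were low or near absent without added PRH. CYP4F22 rested on 3 reads in the empty virus libraries, with a ratio by reads of 30.3 (10.1 to 149).

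The largest decrease was in HSPA6, a heat shock gene described further on. FOXP2, a transcription factor of developing brain and lung, had 84.2 and 56.4 normalised counts with the PRH virus and 687 and 487 with the empty virus (log2 fold change -3.05 ± 0.27, adjusted p = 0.00268). RORB, a nuclear receptor, had 618 and 583 with the PRH virus and 3822 and 3308 with the empty virus (log2 fold change -2.57 ± 0.12, adjusted p = 0.000855). The libraries of each group lay close together and the groups far apart. MLLT11 had 187 and 177 with the PRH virus and 1201 and 806 with the empty virus (log2 fold change -2.43 ± 0.21, adjusted p = 0.00268). PCLO, a scaffold of the presynaptic zone, had 558 and 368 with the PRH virus and 2499 and 1528 with the empty virus (log2 fold change -2.10 ± 0.27, adjusted p = 0.00603). RNF128, a ubiquitin ligase, had 952 and 817 with the PRH virus and 3685 and 3479.6 with the empty virus (log2 fold change -2.02 ± 0.12, adjusted p = 0.00121), and again neither pair of libraries spread far. FILIP1L (-2.07 ± 0.15, adjusted p = 0.00197), LRRN3 (-2.37 ± 0.31, adjusted p = 0.0061), CSRNP3 (-2.06 ± 0.32, adjusted p = 0.00955) and the non-coding LINC00472 (-1.96 ± 0.27, adjusted p = 0.00701) were lower as well. CPA4 (-3.15 ± 0.69, adjusted p = 0.0259), the fatty acid receptor CD36 (-2.24 ± 0.59, adjusted p = 0.0455) and the cAMP-gated exchange factor RAPGEF4 (-2.99 ± 0.74, adjusted p = 0.0376) fell in the full fit, but without empty virus A their adjusted p was 0.0687, 0.186 and 0.131. Their log2 fold changes without that library were -2.15, -1.47 and -2.12, and after GC adjustment CD36 and RAPGEF4 had an adjusted p of 0.0746 and 0.0696.

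Among the called genes with the most reads was ALDH1A1, which makes retinoic acid. It had 37028 and 36237 normalised counts in PRH virus libraries, against 117607 and 111065 in empty virus libraries (log2 fold change -1.64 ± 0.13, adjusted p = 0.00241). The lower pair was the PRH virus pair by a wide margin. ANXA1, an annexin that dampens inflammation, had 27044 and 32891 with the PRH virus and 59284 and 69906 with the empty virus (log2 fold change -1.11 ± 0.15, adjusted p = 0.00693). DST, a cytoskeletal linker, was lower too (-0.78 ± 0.11, adjusted p = 0.00708). The actin crosslinker ACTN1 was higher (0.69 ± 0.10, adjusted p = 0.00788). Small changes in other genes with many reads were fragile. MYH9 (0.49 ± 0.12, adjusted p = 0.0345), BSG (0.46 ± 0.11, adjusted p = 0.0363) and VCL (0.44 ± 0.11, adjusted p = 0.0413) were called higher in the full fit and lost the call whichever library was left out, with adjusted p up to 0.241, 0.214 and 0.308, and MYH9 and BSG also after GC adjustment (adjusted p = 0.272 and 0.385).

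**Figure D3:**
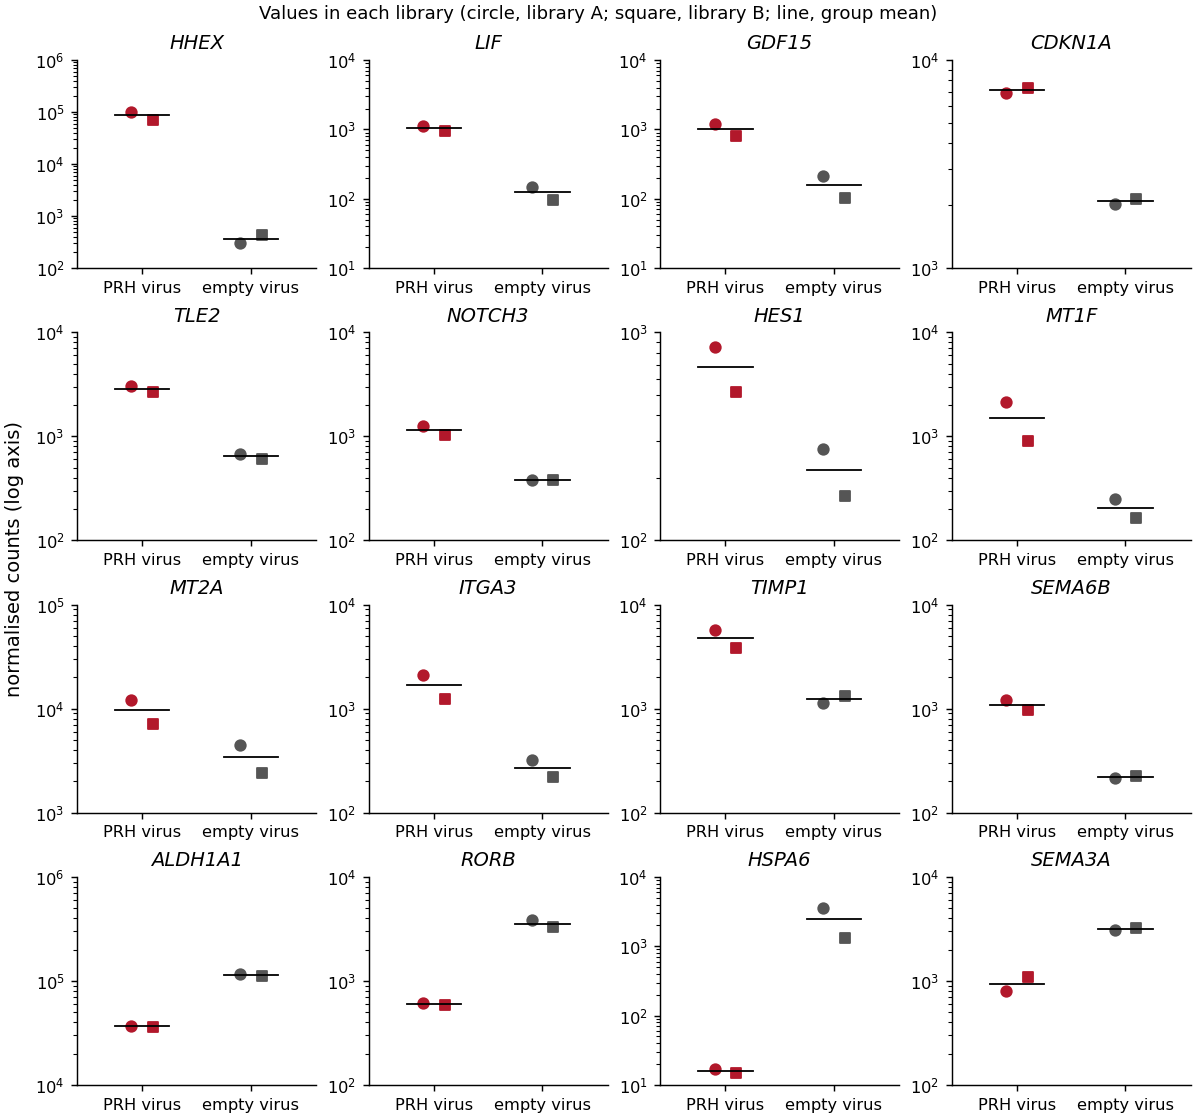
Normalised counts of 16 genes in each library on log axes, PRH virus in red at the left and empty virus in grey at the right; circles are library A, squares library B and lines the group means. In every panel the PRH virus libraries lie on 1 side of both empty virus libraries, as they do for every called gene.

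In the Notch pathway the receptors, ligands and targets that were called were all higher. NOTCH3, the receptor the study also targeted with an shRNA, had 1257 and 1028 normalised counts with the PRH virus and 377 and 382 with the empty virus (log2 fold change 1.58 ± 0.15, adjusted p = 0.00281). NOTCH1 had 1103 and 1252 with the PRH virus and 688 and 555 with the empty virus (log2 fold change 0.93 ± 0.15, adjusted p = 0.0103), and its call was lost after GC adjustment (adjusted p = 0.102). NOTCH2 was not called at 4667 and 4711 with the PRH virus and 5029 and 4958 with the empty virus, and NOTCH4 was at 0 throughout. Of the 5 ligands JAG2 had 2959 and 2711 with the PRH virus and 1371 and 1183 with the empty virus (log2 fold change 1.15 ± 0.12, adjusted p = 0.00338). JAG1 was called higher in the full fit (1.25 ± 0.29, adjusted p = 0.0308), but not without PRH virus A (adjusted p = 0.203), empty virus A (adjusted p = 0.0606) or empty virus B (adjusted p = 0.0725), nor after GC adjustment (adjusted p = 0.0503). The median log2 fold change of the ligands was 1.15, or 0.76 after GC adjustment, and in the fit with no intensity trend 1 receptor and 1 ligand were higher. DLL1, DLL3 and DLL4 were not called.

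Of 23 tested genes for processing and the nuclear complex 3 were higher and 1 lower, beside 9.9% and 5.73% of all genes. Without the intensity trend 1 was higher and 0 lower. LFNG, which adds sugar to Notch and alters its choice of ligand, had 121 and 118 with the PRH virus and 25.7 and 33.2 with the empty virus (log2 fold change 1.99 ± 0.28, adjusted p = 0.00717). PSEN2, a catalytic subunit of gamma-secretase, had 2258 and 1860.0 with the PRH virus and 1139.8 and 1031 with the empty virus (log2 fold change 0.92 ± 0.13, adjusted p = 0.00728). RBPJ had 833 and 630.4 with the PRH virus and 888 and 624 with the empty virus and was not called. Of 10 tested target genes 4 were higher and 0 lower, with a median log2 fold change of 0.45. HES1 had 851 and 518 with the PRH virus and 275 and 163 with the empty virus (log2 fold change 1.64 ± 0.31, adjusted p = 0.0175), and HEYL 292 and 236 with the PRH virus and 87.8 and 56.5 with the empty virus (log2 fold change 1.88 ± 0.28, adjusted p = 0.0076). In both the groups were apart, while library A exceeded B in either group. HES2 (1.06 ± 0.21, adjusted p = 0.0186) and HES4 (1.01 ± 0.25, adjusted p = 0.0371) lost the call after GC adjustment (adjusted p = 0.0847 and 0.271), and HES4 also without empty virus B (adjusted p = 0.0783). After GC adjustment 2 of the 10 targets were higher and 1 lower, with a median of 0.10, and without the intensity trend 1 was higher.

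The promoter of HES1 is printed because it carries the letters TGGGAA, the core read by RBPJ, at 2 places, set in capitals. It is the 250 bases before the gene's start in RefSeq (GRCh38.p14, plus strand, chr3:194135898-194136147).
HES1: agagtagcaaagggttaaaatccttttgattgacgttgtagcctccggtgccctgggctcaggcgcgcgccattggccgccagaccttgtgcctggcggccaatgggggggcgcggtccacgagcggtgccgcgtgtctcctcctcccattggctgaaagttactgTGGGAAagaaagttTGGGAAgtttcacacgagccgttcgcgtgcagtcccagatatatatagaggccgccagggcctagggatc
These letters, searched on both strands, were found in 4 of 8 Notch target promoters and in 19.5% of the 9173 promoters of tested genes.

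PRH works with TLE co-repressors, and of the 6 tested members of that family 3 were called higher and 1 lower. The shares of all genes were 9.9% and 5.73%, and without the intensity trend 2 members were higher and 0 lower. TLE2 had 3018 and 2655 normalised counts with the PRH virus and 683 and 600.4 with the empty virus (log2 fold change 2.14 ± 0.12, adjusted p = 0.00121). TLE6 had 493 and 564 with the PRH virus and 151 and 185 with the empty virus (log2 fold change 1.65 ± 0.18, adjusted p = 0.00372), and AES, the short member, 11665 and 13150.2 with the PRH virus and 7227 and 8073 with the empty virus (log2 fold change 0.70 ± 0.11, adjusted p = 0.0105). In all 3 the libraries of a group lay close to each other and the groups apart. TLE4 was lower, at 24.8 and 39.9 with the PRH virus and 88.9 and 123 with the empty virus (log2 fold change -1.70 ± 0.35, adjusted p = 0.0213), but not called without empty virus B (adjusted p = 0.0725). TLE1 (log2 fold change 0.15) and TLE3 (-0.33) were not called. The letters ATTAA, a core that homeodomains read, stood in 6.42% of promoters of genes called higher, 16.3% of those called lower and 12.3% of those not called, while the median GC content of these promoters was 70.4%, 63.4% and 64.8%. A longer site reported for PRH, CAATTAAA, was found in 0.443%, 0.179% and 0.48% of them. Both were searched on both strands of the same 250 bases, and an ATTAA also lies in each longer match.

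Heat shock chaperones keep other proteins folded, and the factor HSF1 switches on their inducible members. Of 26 tested, 13 were lower with the PRH virus and 0 higher, beside 5.73% and 9.9% of all genes, with a median log2 fold change of -0.48, against -0.01 for all genes tested. HSPA6, a stress-induced HSP70, had 16.8 and 14.8 normalised counts with the PRH virus and 3616 and 1313 with the empty virus (log2 fold change -7.02 ± 0.44, adjusted p = 0.00143). HSPA1B, another inducible HSP70, had 24.8 and 14.8 with the PRH virus and 209 and 129.6 with the empty virus (log2 fold change -3.04 ± 0.38, adjusted p = 0.00559). The empty virus libraries were high in both genes and library A more so. Values of HSPA1B are uncertain, since its near-identical copy HSPA1A was at 0 in the 4 parental libraries and the counting of reads that the copies share is not stated. The co-chaperone BAG3 had 3843 and 3841 with the PRH virus and 9212 and 6441 with the empty virus (log2 fold change -1.003 ± 0.17, adjusted p = 0.0111). DNAJB4 had 1643 and 1676 with the PRH virus and 5281 and 3915 with the empty virus (log2 fold change -1.45 ± 0.15, adjusted p = 0.00338), and HSPA4L 576 and 539 with the PRH virus and 1368 and 1030.2 with the empty virus (log2 fold change -1.09 ± 0.16, adjusted p = 0.00791).

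Part of this list rested on 1 library. Without empty virus A 6 members were called lower, without PRH virus A 10, and without PRH virus B or empty virus B 12. In the fit with no intensity trend 3 were. HSP90AA1, a member of the HSP90 class (-0.76 ± 0.19, adjusted p = 0.0384), lost the call without empty virus A (adjusted p = 0.217) and after GC adjustment (adjusted p = 0.0687). The constitutive HSPA8 (-0.63 ± 0.15, adjusted p = 0.0343) lost it in all 4 such fits, with adjusted p up to 0.245. The log2 fold change of HSPA6 was -6.29 without empty virus A and -7.75 without empty virus B. In control shRNA cells, HSPA6 had 29.8 and 59.9 with the PRH virus and 16.4 and 22.6 with the empty virus and was not called. There the list had 2 higher and 7 lower of 28, beside 15.2% and 11.8% of all genes tested there, with a median log2 fold change of -0.13. CRYAB, a small chaperone, went against the list at 17.7 and 27.8 with the PRH virus and 7.02 and 4.43 with the empty virus, but was not called (adjusted p = 0.0585).

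The promoters of HSPA6 and HSPA1B are printed to show the paired units bound by HSF1, which are in capitals. They were searched as GAANNTTC or TTCNNGAA, which read the same on both strands, in the 250 bases before each gene (RefSeq, GRCh38.p14, plus strand). HSPA6 lies at chr1:161524290-161524539 and HSPA1B at chr6:31827488-31827737.
HSPA6: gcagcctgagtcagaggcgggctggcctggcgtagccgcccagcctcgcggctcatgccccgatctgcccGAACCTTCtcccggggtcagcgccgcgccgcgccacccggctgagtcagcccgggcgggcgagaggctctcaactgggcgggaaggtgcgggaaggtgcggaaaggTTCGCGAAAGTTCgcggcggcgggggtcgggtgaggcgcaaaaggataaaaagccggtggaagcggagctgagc
HSPA1B: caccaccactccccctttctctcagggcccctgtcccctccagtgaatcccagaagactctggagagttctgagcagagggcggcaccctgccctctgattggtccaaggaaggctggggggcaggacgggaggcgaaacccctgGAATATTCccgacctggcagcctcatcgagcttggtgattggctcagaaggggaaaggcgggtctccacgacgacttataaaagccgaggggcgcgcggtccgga
GAANNTTC was found in 8 of 23 promoters of the list and 3.86% of the promoters of tested genes, and TTCNNGAA in 4 of 23 and 4.89%. Among the members called lower, these were found in 4 of 13 and 2 of 13 promoters. For DNAJB1, another chaperone gene, the same search of chr19:14529272-14529521 (minus strand) found 0 matches, and the stretch is not printed. Only this stretch was searched, so any other start of DNAJB1 is not covered. In HSPA6 matches of both patterns share letters, so 3 matches make 2 stretches of capitals.

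Metallothioneins bind zinc and copper, and their genes answer to metal through the factor MTF1. Of 8 tested, 6 were higher with the PRH virus and 0 lower, beside 9.9% and 5.73% of all genes. The median log2 fold change of the list was 1.55. With no intensity trend 0 of the 8 were called. MT1F had 2137 and 899 normalised counts with the PRH virus and 248 and 165 with the empty virus (log2 fold change 2.77 ± 0.39, adjusted p = 0.00712). MT1A had 3434 and 1780.1 with the PRH virus and 713 and 459.7 with the empty virus (log2 fold change 2.11 ± 0.32, adjusted p = 0.00896), and MT1X 3002 and 1961 with the PRH virus and 914 and 706 with the empty virus (log2 fold change 1.59 ± 0.22, adjusted p = 0.00664). Library A was above B within either group, and the groups did not overlap, as in every called gene. MT1B was higher from a low level, at 207 and 66.0 with the PRH virus and 19.9 and 5.54 with the empty virus (log2 fold change 3.33 ± 0.70, adjusted p = 0.0236). MT2A had 12193 and 7048 with the PRH virus and 4486 and 2432 with the empty virus (log2 fold change 1.49 ± 0.33, adjusted p = 0.0277), and MT1E was called as well (1.499 ± 0.34, adjusted p = 0.03). Both lost the call without empty virus B (adjusted p = 0.0558 and 0.0532) and after GC adjustment (adjusted p = 0.0745 and 0.0722), so 4 members were called in each of these fits. Without PRH virus A or B the log2 fold change of MT1B was 2.52 and 4.15, and without empty virus A or B 4.17 and 2.497. MT1F had 2.15 and 3.39 without PRH virus A or B. These genes are near copies of each other and the handling of shared reads is not stated, so values of single members are uncertain. In control shRNA cells 8 of 9 tested were higher, beside 15.2% of all genes tested there. MT1X had 4604 and 5367 there with the PRH virus and 1899 and 1874 with the empty virus.

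The promoters of MT1X and MT2A are printed for their metal response elements, in capitals, searched as TGCACNC and TGCGCNC on both strands of the 250 bases before the gene (RefSeq, GRCh38.p14, plus strand). MT1X lies at chr16:56682220-56682469 and MT2A at chr16:56608334-56608583.
MT1X: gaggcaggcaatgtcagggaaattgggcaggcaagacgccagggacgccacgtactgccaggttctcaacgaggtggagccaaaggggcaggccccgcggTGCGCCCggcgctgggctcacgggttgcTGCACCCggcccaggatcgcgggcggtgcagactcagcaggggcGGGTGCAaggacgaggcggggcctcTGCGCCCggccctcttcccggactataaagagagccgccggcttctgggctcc
MT2A: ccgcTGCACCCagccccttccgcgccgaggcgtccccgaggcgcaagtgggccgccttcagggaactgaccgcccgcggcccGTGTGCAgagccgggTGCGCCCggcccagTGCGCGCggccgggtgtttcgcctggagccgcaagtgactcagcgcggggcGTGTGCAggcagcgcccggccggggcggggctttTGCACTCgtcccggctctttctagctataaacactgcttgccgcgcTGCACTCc
TGCACNC was found in 4 of 5 metallothionein promoters at hand and 9.28% of promoters of tested genes, and TGCGCNC in 2 of 5 and 27.1%.

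Of 7 tested CDK inhibitors, which brake the cell cycle, 2 were higher, 2 lower and 3 not called, beside 9.9% and 5.73% of all genes. After GC adjustment 1 was higher and 3 lower, and without the intensity trend 2 were higher and 1 lower. CDKN1A, the CDK inhibitor p21, had 6974 and 7335 normalised counts with the PRH virus and 2036 and 2159 with the empty virus (log2 fold change 1.77 ± 0.10, adjusted p = 0.00121). CDKN2B, the inhibitor p15, was lower, at 1255 and 1337 with the PRH virus and 2984 and 2319.7 with the empty virus (log2 fold change -1.02 ± 0.14, adjusted p = 0.00666), as was CDKN1B, the inhibitor p27, at 498 and 488 with the PRH virus and 958 and 842 with the empty virus (log2 fold change -0.86 ± 0.13, adjusted p = 0.00883). Both pairs of libraries were tight in CDKN1A and CDKN1B. CDKN2D was called higher (1.33 ± 0.24, adjusted p = 0.0139) but lost the call without PRH virus A (adjusted p = 0.0608) and after GC adjustment (adjusted p = 0.0514). Of 40 tested genes of G1/S and DNA replication only E2F2 was called, at 588 and 608 with the PRH virus and 297 and 333 with the empty virus (log2 fold change 0.92 ± 0.15, adjusted p = 0.00964), and 0 were lower. Of 35 mitosis genes only CDC25B was called (0.48 ± 0.12, adjusted p = 0.0437), and it lost the call without PRH virus A (adjusted p = 0.323), empty virus A (adjusted p = 0.072) or empty virus B (adjusted p = 0.0954) and after GC adjustment (adjusted p = 0.329). The median log2 fold change was 0.06 in the G1/S list and 0.09 in the mitosis list (0.01 and 0.17 after GC adjustment), and without empty virus B the G1/S list held 4 higher genes. MKI67, a marker of cycling cells, had 12017 and 14388 with the PRH virus and 10398 and 11763 with the empty virus and was not called. Of 22 tested p53 targets 3 were higher and 5 lower, beside 9.9% and 5.73% of all genes. PLK2, a polo-like kinase, was lower, at 4605 and 6859.9 with the PRH virus and 11284 and 13762 with the empty virus (log2 fold change -1.15 ± 0.20, adjusted p = 0.0122). Without 1 library the p53 counts were 1 and 3 (PRH virus A), 6 and 5 (PRH virus B), 6 and 2 (empty virus A) or 3 and 6 (empty virus B), and without the intensity trend 0 were higher and 1 lower.

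Cell contact and matrix genes shifted in both directions. Of 24 tested integrin and laminin genes 7 were higher and 2 lower, beside 9.9% and 5.73% of all genes. Their median log2 fold change was 0.09 (0.05 after GC adjustment). ITGA3, an integrin chain for laminins, had 2119 and 1228 with the PRH virus and 318 and 222 with the empty virus (log2 fold change 2.60 ± 0.28, adjusted p = 0.00361). ITGA5, which pairs for fibronectin, had 4534 and 3826 with the PRH virus and 1599.6 and 1840.0 with the empty virus (log2 fold change 1.28 ± 0.13, adjusted p = 0.00324), and ITGA7 was higher too (1.85 ± 0.29, adjusted p = 0.00948). Collagens split, 5 of 20 higher and 4 lower, beside the same shares of all genes, with a median of 0.16 (0.03 after GC adjustment). COL11A1, a fibrillar collagen, had 8931 and 9368 with the PRH virus and 24702 and 23861 with the empty virus (log2 fold change -1.41 ± 0.10, adjusted p = 0.00181). COL5A2, another fibrillar chain, had 14388 and 13742 with the PRH virus and 40018 and 33891 with the empty virus (log2 fold change -1.39 ± 0.12, adjusted p = 0.00268). In both, every empty virus library stood well above every PRH virus library. COL6A1 (1.43 ± 0.20, adjusted p = 0.00722) and COL18A1 (1.24 ± 0.17, adjusted p = 0.00685), chains of other collagen classes, were higher. Without PRH virus A or without empty virus A 2 collagen genes were lower, and after GC adjustment 2 were higher and 3 lower. No integrin or laminin gene was lower without empty virus A, 3 were without PRH virus A and 1 without PRH virus B or empty virus B, and after GC adjustment 4 were higher and 0 lower. Without the intensity trend 3 integrin or laminin genes were higher, and of the collagens 1 was higher and 2 lower.

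Of 14 metalloproteinases and inhibitors 6 were higher and 2 lower, beside 9.9% and 5.73% of all genes. The median log2 fold change of the list was 0.33, or 0.075 after GC adjustment. MMP10, a stromelysin, had 3038 and 2942 with the PRH virus and 9829 and 9384 with the empty virus (log2 fold change -1.68 ± 0.09, adjusted p = 0.00121). TIMP1, an inhibitor of these proteases, had 5742 and 3847 with the PRH virus and 1127 and 1328 with the empty virus (log2 fold change 1.94 ± 0.19, adjusted p = 0.00324), and MMP17, a membrane-type member, 671 and 609.6 with the PRH virus and 167 and 198 with the empty virus (log2 fold change 1.81 ± 0.17, adjusted p = 0.00287). MMP10 and TIMP1 thus stood on opposite sides. Lower members numbered 3 without empty virus B and 1 without empty virus A, and after GC adjustment 2 members were higher and 1 lower. Without the intensity trend 3 were higher and 1 lower. In plasminogen activation, PLAT had 3049 and 2328 with the PRH virus and 641 and 571 with the empty virus (log2 fold change 2.14 ± 0.15, adjusted p = 0.00181), and PLAU was higher too (0.85 ± 0.17, adjusted p = 0.0192). TFPI, which blocks tissue factor, had 1013 and 997 with the PRH virus and 3646 and 2871 with the empty virus (log2 fold change -1.69 ± 0.14, adjusted p = 0.00241). PROCR, the protein C receptor, was higher (1.21 ± 0.16, adjusted p = 0.00612).

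Semaphorins steer axons and migrating cells through plexin receptors. Of 28 tested semaphorins and plexins 12 were higher and 5 lower, beside 9.9% and 5.73% of all genes. The median log2 fold change of the list was 0.52, or 0.31 after GC adjustment. Of the secreted class 3 members that were called, 4 were lower and 2 higher. SEMA3A had 796 and 1091 with the PRH virus and 3072 and 3245 with the empty virus (log2 fold change -1.76 ± 0.16, adjusted p = 0.00268). SEMA3D had 509.7 and 418 with the PRH virus and 1373 and 1149 with the empty virus (log2 fold change -1.44 ± 0.16, adjusted p = 0.00361), and SEMA3C (-0.88 ± 0.10, adjusted p = 0.00391) and SEMA3E (-2.36 ± 0.31, adjusted p = 0.00616) were lower as well. SEMA3F was higher, at 665 and 565 with the PRH virus and 167 and 268 with the empty virus (log2 fold change 1.53 ± 0.24, adjusted p = 0.00969). SEMA3G (2.20 ± 0.57, adjusted p = 0.0446), named after its value was seen, was called higher but lost the call whichever library was left out (adjusted p up to 0.197) and after GC adjustment (adjusted p = 0.0946). Among membrane-bound members SEMA6B had 1219 and 960.4 with the PRH virus and 215 and 225 with the empty virus (log2 fold change 2.29 ± 0.16, adjusted p = 0.00181). SEMA4B (1.18 ± 0.16, adjusted p = 0.00626) and SEMA7A (1.42 ± 0.24, adjusted p = 0.0111) were higher and SEMA6D lower (-2.24 ± 0.33, adjusted p = 0.00752). The receptor PLXNB2 had 6394 and 6254 with the PRH virus and 3034 and 3383 with the empty virus (log2 fold change 0.98 ± 0.10, adjusted p = 0.00338). Leaving out 1 library gave 9 to 11 higher and 5 lower, and after GC adjustment 5 were higher and 5 lower. The fit with no intensity trend had 7 higher and 5 lower. In control shRNA cells 13 of 29 were higher and 4 lower, beside 15.2% and 11.8% of all genes tested there. Of these 10 and 3 were called the same way in parental cells.

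**Figure D4:**
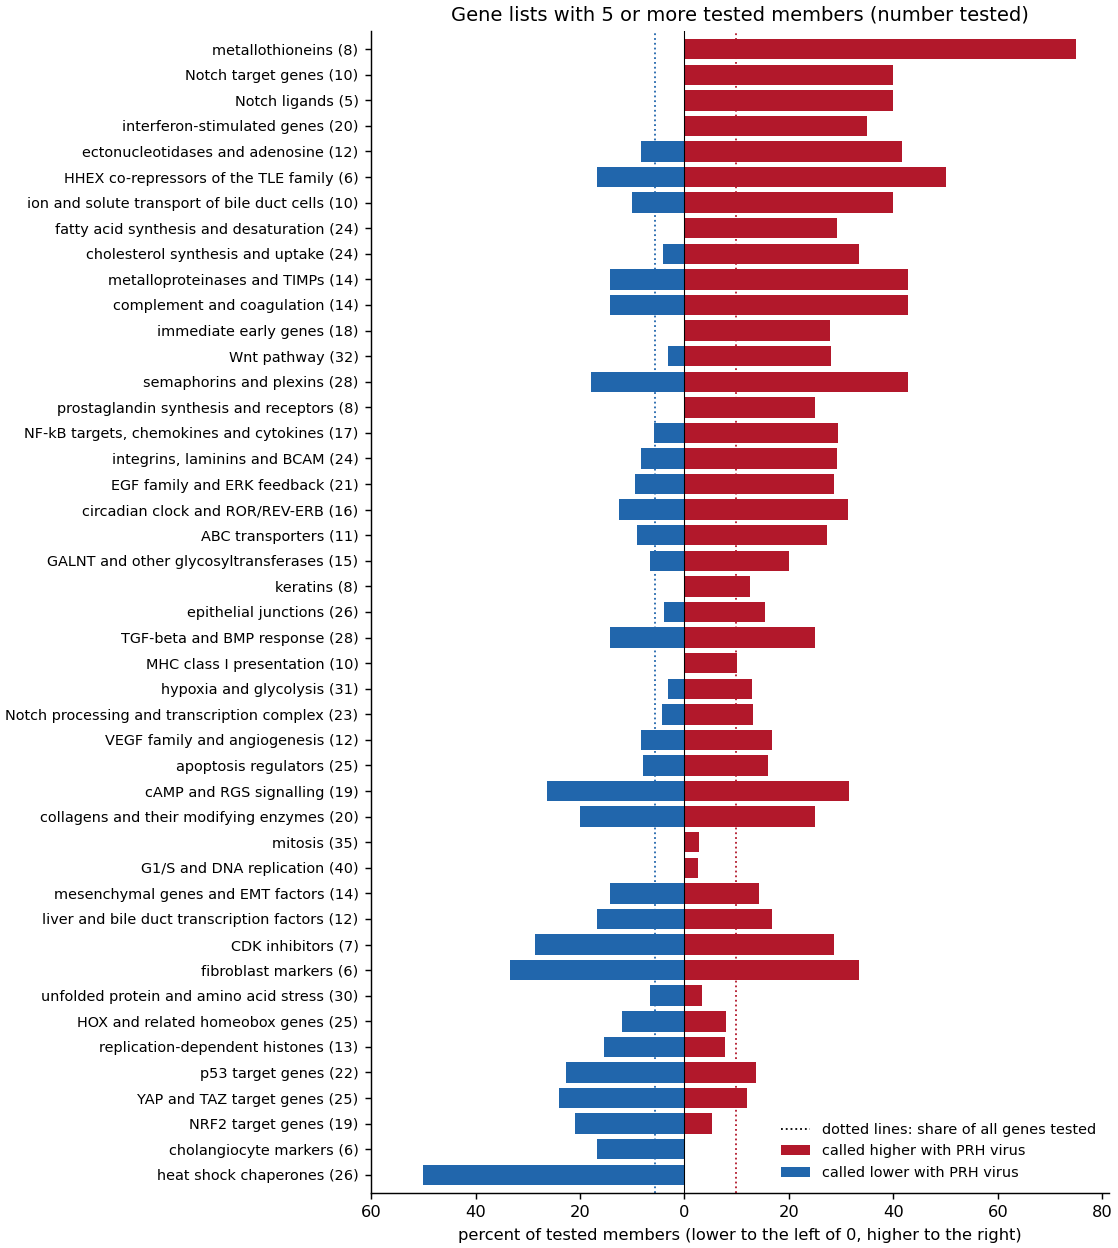
Percent of the tested members of each gene list called higher (red, right) or lower (blue, left) with the PRH virus; the number tested stands in brackets and dotted lines mark the shares of all genes, 9.9% and 5.73%. Metallothioneins (6 of 8 higher) stand at one end and heat shock chaperones (13 of 26 lower) at the other.

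In growth factor signalling, GDF15, a stress-induced member of the TGF-beta family, had 1208 and 804 with the PRH virus and 211 and 101 with the empty virus (log2 fold change 2.75 ± 0.36, adjusted p = 0.00603). Of 28 tested TGF-beta and BMP genes 7 were higher and 4 lower, beside 9.9% and 5.73% of all genes. The median log2 fold change of the list was 0.12 (0.07 after GC adjustment). TGFB1 had 7892 and 7989.6 with the PRH virus and 4410.4 and 5084 with the empty virus (log2 fold change 0.75 ± 0.11, adjusted p = 0.00738), whereas TGFB2 was lower (-0.72 ± 0.12, adjusted p = 0.0122). CTGF, a matrix protein that TGF-beta and YAP raise, had 12444 and 14730.5 with the PRH virus and 23739 and 28114 with the empty virus (log2 fold change -0.93 ± 0.14, adjusted p = 0.00788). TGFB1 and TGFB2 thus differed in sign. Of 25 targets of YAP and TAZ 3 were higher and 6 lower (median -0.12, or -0.29 after GC adjustment), beside the same shares of all genes. Among them NUAK2, a kinase, was higher (1.46 ± 0.14, adjusted p = 0.00292). The ectonucleotidase NT5E, in that list too, had 8062 and 8612 with the PRH virus and 17936 and 15587 with the empty virus (log2 fold change -1.005 ± 0.11, adjusted p = 0.00401). Without PRH virus A the TGF-beta list held 3 higher members and without empty virus A 4, and after GC adjustment it held 4 higher and 4 lower. Without the intensity trend it held 2 higher and 0 lower, and the YAP list 2 higher and 1 lower.

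The median log2 fold change of 32 tested Wnt genes was 0.33. Of these 9 were higher and 1 lower, beside 9.9% and 5.73% of all genes. Those called included ligands, feedback inhibitors and a nuclear factor. WNT11 had 83.3 and 60.8 with the PRH virus and 9.36 and 8.86 with the empty virus (log2 fold change 2.84 ± 0.37, adjusted p = 0.00612), and NOTUM, an enzyme that inactivates Wnt proteins, 73.6 and 92.0 with the PRH virus and 9.36 and 12.2 with the empty virus (log2 fold change 2.83 ± 0.36, adjusted p = 0.00581). Both held at most 12.2 normalised counts with the empty virus and lay well above that with the PRH virus. WNT7B was higher (3.03 ± 0.55, adjusted p = 0.0151), with 2.41 without PRH virus A and 3.65 without PRH virus B. TCF7, a nuclear partner of beta-catenin, had 1761 and 1519.6 with the PRH virus and 843 and 834 with the empty virus (log2 fold change 0.96 ± 0.12, adjusted p = 0.00559). The secreted inhibitor DKK1 was lower, at 4396 and 4889.6 with the PRH virus and 8918 and 10931 with the empty virus (log2 fold change -1.09 ± 0.13, adjusted p = 0.00482). AXIN2, a common readout of beta-catenin, was not called at 12310.4 and 15245 with the PRH virus and 12676 and 15573 with the empty virus. Lower Wnt genes numbered 2 without PRH virus A, and 6 were higher and 1 lower without the intensity trend or without empty virus A.

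Regulators of receptors and cAMP were split. RGS2, which shuts off Gq, had 3832 and 5105 with the PRH virus and 11312 and 11500.0 with the empty virus (log2 fold change -1.37 ± 0.14, adjusted p = 0.00341), and RGS20 was lower too (-1.10 ± 0.14, adjusted p = 0.00611). RGS14 was higher, at 747 and 579 with the PRH virus and 259.8 and 219 with the empty virus (log2 fold change 1.46 ± 0.19, adjusted p = 0.00583). PDE4D, which breaks down cAMP, was lower (-1.45 ± 0.22, adjusted p = 0.00842), and RAPGEF3, a cAMP-gated exchange factor, higher (1.86 ± 0.35, adjusted p = 0.0168). These belong to a list of 19 with 6 higher and 5 lower, with 3 lower without empty virus A and after GC adjustment. Its median log2 fold change was 0.07, or -0.07 after GC adjustment, and without the intensity trend 2 were higher and 2 lower. Of all genes tested 9.9% were higher and 5.73% lower in the full fit. Of the EGF family and ERK feedback, 6 of 21 were higher and 2 lower, beside the same shares of all genes. The median of this list was -0.04 (0.00097 after GC adjustment). ERBB3 had 164 and 152 with the PRH virus and 41.0 and 62.0 with the empty virus (log2 fold change 1.63 ± 0.28, adjusted p = 0.0125), the early gene EGR1 489 and 602 with the PRH virus and 159 and 253 with the empty virus (log2 fold change 1.43 ± 0.25, adjusted p = 0.0125), and the feedback inhibitor SPRY1 was lower (-0.84 ± 0.15, adjusted p = 0.0134). The EGF list had 2 higher members without PRH virus B or without empty virus A, and 1 lower without PRH virus A or empty virus B, and without the intensity trend 1 was higher and 1 lower. BHLHE40, a repressor of clock genes, had 8286 and 8028 with the PRH virus and 3771 and 4696 with the empty virus (log2 fold change 0.95 ± 0.13, adjusted p = 0.00612).

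Genes of inflammation were raised in part. LIF, a cytokine of the IL-6 family, had 1136 and 942 with the PRH virus and 149 and 97.5 with the empty virus (log2 fold change 3.09 ± 0.23, adjusted p = 0.00197). ICAM1, to which leukocytes attach, had 98.4 and 79.0 with the PRH virus and 15.2 and 7.75 with the empty virus (log2 fold change 2.90 ± 0.42, adjusted p = 0.00727). In both the groups lay far apart. BIRC3, an NF-kB target that blocks cell death, was lower (-0.82 ± 0.14, adjusted p = 0.0125). With CCL5 and IL32, 5 of 17 tested genes of this list were higher and 1 lower, beside 9.9% and 5.73% of all genes. The median log2 fold change of the list was 0.30. In the fit without PRH virus B 3 were lower. CORO1A, a coronin known from leukocytes, had 771 and 549 with the PRH virus and 179 and 145 with the empty virus (log2 fold change 2.01 ± 0.22, adjusted p = 0.00358), while the leukocyte marker PTPRC had 2.66 and 8.68 with the PRH virus and 8.19 and 18.8 with the empty virus. Of 20 interferon-stimulated genes 7 were higher and 0 lower, beside the same shares of all genes, with a median log2 fold change of 0.61. DDX58, the RNA sensor RIG-I, had 385 and 241 with the PRH virus and 72.6 and 86.4 with the empty virus (log2 fold change 1.93 ± 0.27, adjusted p = 0.00711), and ISG20, an RNase, 254 and 175 with the PRH virus and 72.6 and 55.4 with the empty virus (log2 fold change 1.71 ± 0.28, adjusted p = 0.0103). IFIT1 (2.35 ± 0.54, adjusted p = 0.0304) lost the call without PRH virus A (adjusted p = 0.15), empty virus A (adjusted p = 0.0546) or empty virus B (adjusted p = 0.0676). It had a log2 fold change of 1.603 without PRH virus A and 3.10 without PRH virus B. The count of higher interferon-stimulated genes was 2 without PRH virus A or empty virus B, 10 without PRH virus B and 4 after GC adjustment. In the fit that left out PRH virus A, 2 were lower, and without the intensity trend 4 were higher.

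Of 8 tested genes of prostaglandin synthesis and reception 2 were higher and 0 lower, beside 9.9% and 5.73% of all genes. The other 6 were not called, and the list's median log2 fold change was 0.28 (0.11 after GC adjustment). PTGES, which makes prostaglandin E2, had 94.0 and 39.9 with the PRH virus and 1.17 and 4.43 with the empty virus (log2 fold change 4.18 ± 0.65, adjusted p = 0.0093). PTGDS, which makes prostaglandin D2, had 42.6 and 27.8 with the PRH virus and 3.51 and 2.22 with the empty virus (log2 fold change 3.22 ± 0.52, adjusted p = 0.0103). ENTPD2, which strips phosphates from extracellular ATP, had 227 and 150.2 with the PRH virus and 10.5 and 3.32 with the empty virus (log2 fold change 4.72 ± 0.52, adjusted p = 0.00373). All 3 held at most 10.5 normalised counts with the empty virus. ENTPD8 (2.17 ± 0.35, adjusted p = 0.0103) and the nucleoside carrier SLC29A1 (0.57 ± 0.10, adjusted p = 0.0125) were higher, whereas NT5E, the last enzyme on the way to adenosine, was lower, as given above. The list of ectonucleotidases and adenosine held 5 higher and 1 lower of 12, beside the same shares of all genes. Its median was 0.54, with 3 higher after GC adjustment and 2 higher without the intensity trend. The log2 fold change of PTGES was 3.58 and 4.79 without PRH virus A or B, and 3.52 and 4.84 without empty virus A or B. That of ENTPD2 was 5.42 and 4.01 without empty virus A or B.

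Of 24 tested genes of fatty acid and lipid synthesis 7 were higher and 0 lower, beside 9.9% and 5.73% of all genes. The other 17 were not called, and the list's median log2 fold change was 0.28. AGPAT2, which makes phosphatidic acid, had 1185 and 1217 with the PRH virus and 376 and 436 with the empty virus (log2 fold change 1.57 ± 0.13, adjusted p = 0.00268). DGAT2, which makes triglyceride, had 878 and 585 with the PRH virus and 256 and 206 with the empty virus (log2 fold change 1.64 ± 0.23, adjusted p = 0.00684), and LPIN1 rose beside LPIN3 (1.02 ± 0.12, adjusted p = 0.00532). With LPIN3 these are 4 of the 7 higher genes, and without PRH virus A 4 genes of the list were higher. FASN, the fatty acid synthase, had 19520.0 and 21600.0 with the PRH virus and 17602 and 21541 with the empty virus and was not called. Of 24 cholesterol genes 8 were higher and 1 lower, beside the same shares of all genes, with a median log2 fold change of 0.28. However, 3, 3 and 2 were higher without PRH virus A, PRH virus B or empty virus A, 10 were without empty virus B, 3 were after GC adjustment and 0 were without the intensity trend. Of 31 glycolysis and hypoxia genes 4 were higher, beside 9.9% of all genes, and 1 lower, beside 5.73% (3 without PRH virus B, 0 without PRH virus A or empty virus A). ALDOC, an aldolase, had 409 and 309 with the PRH virus and 55.0 and 62.0 with the empty virus (log2 fold change 2.58 ± 0.23, adjusted p = 0.00268), while VEGFA, a hypoxia target and growth factor for vessels, had 1323 and 1568 with the PRH virus and 1033 and 1363 with the empty virus and was not called. The NRF2 targets GCLM (-0.76 ± 0.10, adjusted p = 0.00659) and SLC7A11 (-0.71 ± 0.13, adjusted p = 0.0157) were lower, but not after GC adjustment (adjusted p = 0.0524 and 0.0841).

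SOX9, the bile duct factor named above, had 1344 and 1492 normalised counts with the PRH virus and 2999 and 2477 with the empty virus (log2 fold change -0.94 ± 0.13, adjusted p = 0.00659). Of the homeobox list 2 of 25 were higher and 3 lower, beside 9.9% and 5.73% of all genes, and 1 was higher without PRH virus A, without empty virus B, after GC adjustment or without the intensity trend. Among them were HOXB5 at 3662 and 3995 with the PRH virus and 6088 and 6688 with the empty virus (log2 fold change -0.74 ± 0.10, adjusted p = 0.00711), MEIS2 lower (-0.75 ± 0.10, adjusted p = 0.00612) and MEIS3 higher (1.22 ± 0.16, adjusted p = 0.0061). Among 26 epithelial junction genes 4 were higher and 1 lower, beside the same shares of all genes, with a median log2 fold change of 0.09 (0.17 after GC adjustment). Without the intensity trend 3 junction genes were higher and 0 lower. LLGL2, a polarity protein, had 1234 and 1230.4 with the PRH virus and 388 and 435 with the empty virus (log2 fold change 1.58 ± 0.13, adjusted p = 0.00242). JUP, a junction plaque protein, had 1245 and 1051 with the PRH virus and 509 and 561 with the empty virus (log2 fold change 1.10 ± 0.14, adjusted p = 0.00581), and F11R, a tight junction adhesion molecule, 366 and 208 with the PRH virus and 63.2 and 80.9 with the empty virus (log2 fold change 1.94 ± 0.31, adjusted p = 0.0101). CLDN1, a claudin, was lower (-1.43 ± 0.27, adjusted p = 0.0178), and CDH1, E-cadherin, was low in all libraries at 18.6 and 9.55 with the PRH virus and 12.9 and 18.8 with the empty virus. The transcription factor SNAI1, a repressor of E-cadherin, had 618 and 469 with the PRH virus and 151 and 205 with the empty virus (log2 fold change 1.61 ± 0.22, adjusted p = 0.00673). ACTA2, smooth muscle actin, was lower (-0.87 ± 0.12, adjusted p = 0.00612) and THY1, a surface marker of fibroblasts, higher (0.91 ± 0.10, adjusted p = 0.00371). Of 10 transport genes of bile duct cells 4 were higher and 1 lower, beside the same shares of all genes. The scaffold protein SLC9A3R1 (1.07 ± 0.12, adjusted p = 0.00372) was among the higher ones, and the bicarbonate carrier SLC4A4 was lower (-1.10 ± 0.20, adjusted p = 0.014). PADI2, which converts arginine in proteins to citrulline, had 522 and 379 with the PRH virus and 78.4 and 86.4 with the empty virus (log2 fold change 2.42 ± 0.22, adjusted p = 0.00281).

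Control shRNA cells, in which HHEX had 228980.0 and 330421 normalised counts with the PRH virus and 613 and 715 with the empty virus, had 4282 of 15836 genes called (27.0%), 2412 higher (15.2%) and 1870 lower (11.8%). Their table was scaled and fitted separately, so no test was made across the tables, and the libraries of the tables are not shared. The control shRNA libraries held 52044152 to 65448029 reads in genes, against 20795552 to 28037741 in the parental ones. The spread there was estimated from 8 libraries. The numbers of genes called therefore do not compare the size of the response between the sets of cells. In both sets of cells 1073 genes were higher, which is 81.7% of those higher in parental cells and 44.5% of those higher in control shRNA cells. Lower in both were 539, which is 70.9% and 28.8%. The genes shared in either direction numbered 1612, but 524 without the intensity trend, 906 after GC adjustment and 1049 without PRH virus A. Only 6 genes were called in opposite directions. FDPS, of cholesterol synthesis, was higher in parental cells (4055 and 4314 with the PRH virus and 2889 and 3241 with the empty virus, 0.45 ± 0.11, adjusted p = 0.0317) and lower in control shRNA cells (6269 and 7315 with the PRH virus and 9680.0 and 10230.3 with the empty virus). Its call in parental cells was lost without PRH virus A (adjusted p = 0.0798), PRH virus B (adjusted p = 0.161) or empty virus A (adjusted p = 0.104) and after GC adjustment (adjusted p = 0.097). The other 5 were lower in parental cells and higher in control shRNA cells, namely UBE4B (-0.36 in parental cells), SESN2 (-0.54), ABHD3 (-0.74), DPYSL3 (-1.09) and C9orf25 (-0.92), named after their values were seen. UBE4B lost the call whichever library was left out (adjusted p up to 0.26), ABHD3 without empty virus A (adjusted p = 0.0902) and SESN2 without PRH virus A (adjusted p = 0.0813) or empty virus A (adjusted p = 0.0702). UBE4B (adjusted p = 0.0541) and ABHD3 (adjusted p = 0.0665) lost it after GC adjustment as well, and C9orf25 had no transcript to adjust by.

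Among heat shock chaperones 13 of 26 were lower in parental cells and 7 of 28 in control shRNA cells, and 4 were lower in both. In contrast, 9 of 25 cholesterol genes were lower and 1 higher in control shRNA cells, with a median log2 fold change of -0.31 there and 0.28 in parental cells. BAG3 had 7229.6 and 7010.2 there with the PRH virus and 6618 and 6696 with the empty virus and was not called. Whether these differences exceed the spread between the experiments was not tested. RORB, ALDH1A1 and CDKN1A, by comparison, were called the same way in both. In control shRNA cells RORB had 729.8 and 363 with the PRH virus and 7285 and 6483 with the empty virus. ALDH1A1 had 60662 and 46828 with the PRH virus and 289296 and 274105 with the empty virus there, and CDKN1A 8896 and 10998 with the PRH virus and 3539 and 4188 with the empty virus.

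**Figure D5:**
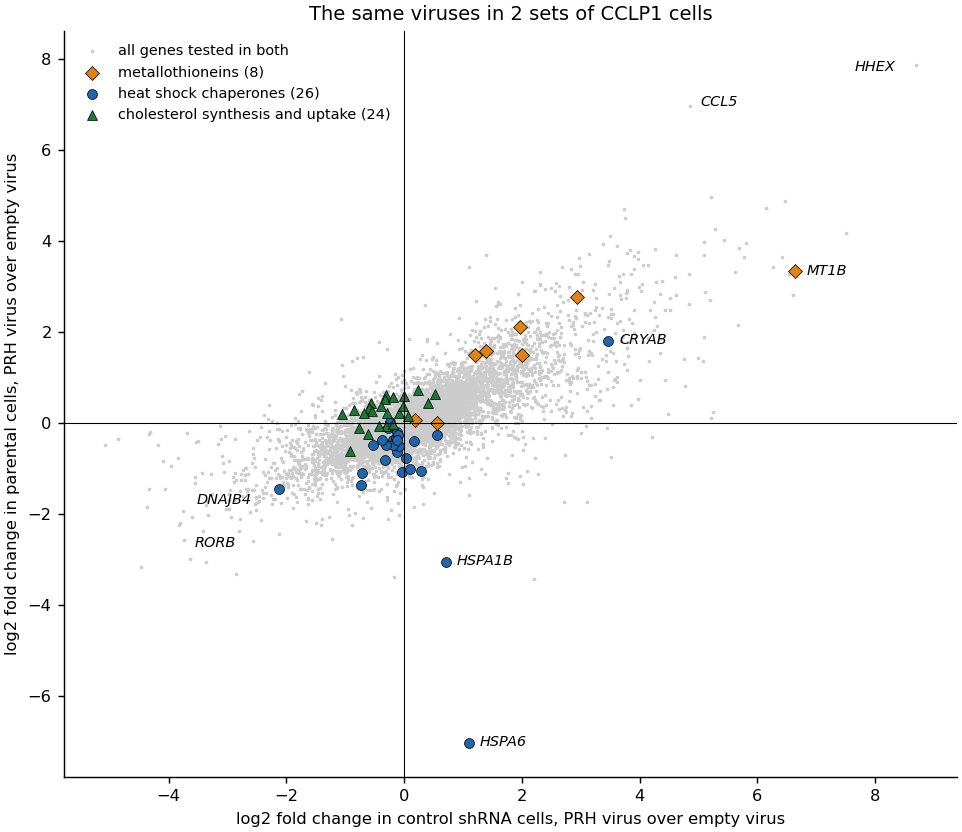
Log2 fold change of PRH virus over empty virus in control shRNA cells (horizontal axis) and parental cells (vertical axis) for genes tested in both, with 3 gene lists marked. The 6 called metallothioneins lie at the upper right, while HSPA6 (-7.02 in parental and 1.09 in control shRNA cells) and HSPA1B (-3.04 and 0.72) lie at the lower right.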

How the data were processed

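Polyadenylated RNA of CCLP1 cells was sequenced in 4 parental libraries (PRH virus and empty virus, 2 each), and 4 control shRNA libraries were set beside them. RNA was extracted with Bioline Isolate II kits and libraries made with Illumina TruSeq reagents, per the labels' protocols. The authors used Trim Galore, TopHat, hg19, featureCounts and DESeq2, per the submitters' processing notes, while versions, strand handling and the treatment of shared reads are not stated there. The deposited values, a signal of gene counts divided by a size factor per library, gave whole reads for 100% of values within 1e-06. The 28 lines with a date in place of a symbol, with 0.208% to 0.242% of reads, were left out.

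Genes with 10 normalised counts or more in 2 of the table's libraries or more entered limma 3.58.1 in R 4.3.3 on log2(value + 1), with an intensity trend. Control shRNA libraries were fitted within the 8 libraries of their own table. edgeR 4.0.16, which called 1296 genes higher and 774 lower on the recovered reads, and DESeq2 1.42.0 were alternatives. On simulated data of 13263 genes the limma step recovered 75% of 2-fold and 98% of 4-fold changes, and 10.4% of its calls were false. No changes were planted in genes with few reads, so recovery for such genes was not measured. Libraries of a group differed beyond sampling noise (chi-square per degree of freedom 19.5 with the PRH virus and 22.3 with the empty virus). Counting intervals are exact at 95%.

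Members and lists were chosen with earlier results of these data known. Named were HHEX, the 20 called genes with the largest fold change and the 10 with the highest mean in each direction (fold change genes with a group mean of 50 or more and no overlap), up to 6 called members per list and direction, every member of lists of 8 or fewer, and key genes of lists. CRYAB and MKI67 were chosen after their values were seen. Some genes that this rule takes are not reported here. Transcript GC content came from GENCODE 29, removed per library in 20 bins in an alternative chosen after seeing the data.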

Additional observations from a re-analysis of the deposited data

Results flagged for a closer look

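Several genes called in parental cells had libraries that moved the opposite way in control shRNA cells, where both PRH virus libraries lay on the other side of both empty virus libraries. Such a gap alone was common, at 59.9% of genes tested in parental cells. HSPA6, HSPA1B, BAG3 and SLC7A11 were not called in control shRNA cells (adjusted p = 0.365, 0.255, 0.466 and 0.191). The other genes given here were called in both. The difference between the cell sets was not tested for any of them. HSPA6 had a log2 fold change of -7.02 in parental cells and 1.09 in control shRNA cells, HSPA1B -3.04 and 0.72, and BAG3 -1.003 and 0.10. SLC7A11, a cystine carrier, had -0.71 and 0.31, SESN2 -0.54 and 1.02, and FDPS 0.45 and -0.56. UBE4B had -0.36 in parental cells and 0.50 in control shRNA cells, ABHD3 -0.74 and 0.43, DPYSL3 -1.09 and 1.76, and C9orf25 -0.92 and 0.45.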

How the results depend on the processing

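No paired analysis was possible because the columns carry a group and a running number that the labels do not tie across groups. Without the intensity trend 758 genes were called (530 higher, 228 lower) and 524 shared with control shRNA cells. After GC adjustment, chosen after seeing the data, 1192 were called (637 higher) and 906 shared. With no filter 483 were lower. Leaving out 1 library gave 1314 to 2101 called, 756 to 1230 higher and 395 to 871 lower, and 1049 to 1520 shared, and HHEX kept its call at 7.60 to 8.14. Under equal library totals 1397 were higher and 660 lower. JUNB changed sign after GC adjustment (-0.036, adjusted p = 0.829, against 0.44 and 0.0392), and the cause was not tested. Of 286 named genes, 115 had the same direction and side of the threshold under every alternative, and 157 lost the call without the trend. By list, no metallothionein (6 in the full fit) and 3 heat shock chaperones (13) were called without the trend. At this depth and size the simulation, which planted no changes in genes with few reads, recovered 75% of 2-fold changes. A gene not called is thus not shown to be unchanged.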
